A study of Rattus norvegicus with 6 samples.

Results

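The genes Magoh, Pop7, Eif4b, Med16 and Cse1l act in transcription, RNA processing, translation or nuclear transport. They were described here in aortas of the spontaneously hypertensive rat (SHR). They were chosen by the RefSeq mRNA accession of their catalogue probe on a one-colour array of 38804 probes. Names were sought only for its 50 catalogue probes, and these 5 are among the 30 genes that could be named. Each gene had 1 probe, printed as 10 spots on every array. SHR is an inbred line in which blood pressure climbs with age on its own, so all 6 rats carry that background. Blood pressure is not among the values used here, and no other strain entered the comparison. From 12 weeks of age, 3 rats were injected intravenously with 5 mg/kg per day of SYP, an oligopeptide of the mushroom Ganoderma lingzhi, for 28 days, and 3 control rats were given saline. Thoracic aortas were taken at 16 weeks, with 1 rat on each array. The labels call the rats female in one field and male in another. No catalogue probe could be named as any of the 23 markers of smooth muscle, endothelium and other vessel or blood cells. The tissue was therefore not checked against its markers.

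Magoh is a core protein of the exon junction complex, which is left on an mRNA where introns were removed and guides its export, translation and quality control. Pop7 (also called Rpp20) is a protein subunit of ribonuclease P and ribonuclease MRP, which trim precursors of transfer RNA and ribosomal RNA. Eif4b is a translation initiation factor that helps the helicase Eif4a unwind the start of an mRNA. Med16 is a subunit of Mediator, the complex that links transcription factors to RNA polymerase II. Cse1l is the export receptor that returns importin alpha from the nucleus to the cytoplasm, so that it can carry further cargo in. Such genes are transcribed in nearly all cells, and promoters of widely expressed genes are often rich in CpG dinucleotides and lack a TATA box.

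Promoter sequences were at hand for 3 of the 5 genes, from RefSeq with the build GRCr8. They are given as a description. As described further on, Magoh and Cse1l followed each other over the arrays while Med16 departed from them in control 1. Whether the sequences bear on those signals was not tested. Each line gives the 250 bases before the annotated start, 5′ to 3′, with every CpG in capitals. Magoh lies at chr5:127867836-127868085, Cse1l at chr3:176059988-176060237 and Med16 at chr7:10449049-10449298, all on the plus strand.
Magoh: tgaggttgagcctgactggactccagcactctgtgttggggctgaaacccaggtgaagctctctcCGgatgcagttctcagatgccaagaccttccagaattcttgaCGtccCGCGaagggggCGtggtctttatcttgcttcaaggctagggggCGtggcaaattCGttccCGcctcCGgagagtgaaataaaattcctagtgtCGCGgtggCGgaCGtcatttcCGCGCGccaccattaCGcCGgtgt
Cse1l: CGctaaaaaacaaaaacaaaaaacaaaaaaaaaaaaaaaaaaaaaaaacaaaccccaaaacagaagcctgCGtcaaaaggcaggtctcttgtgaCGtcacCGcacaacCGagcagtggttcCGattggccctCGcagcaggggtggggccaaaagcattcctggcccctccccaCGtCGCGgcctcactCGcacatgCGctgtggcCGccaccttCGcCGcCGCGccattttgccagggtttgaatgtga
Med16: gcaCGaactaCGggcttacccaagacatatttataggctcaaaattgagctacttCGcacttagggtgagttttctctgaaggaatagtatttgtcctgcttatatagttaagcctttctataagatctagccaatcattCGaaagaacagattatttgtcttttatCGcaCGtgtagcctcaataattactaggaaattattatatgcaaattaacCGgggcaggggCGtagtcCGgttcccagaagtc

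The Magoh window held 18 CpGs, that of Cse1l 17 and that of Med16 9. Set against the number its C and G content would give, the CpG ratio was 0.896 for Magoh, 0.999 for Cse1l and 0.9 for Med16, against a median of 0.383 over 33465 rat promoters. All 3 lay in the CpG-rich part of that distribution, at percentiles 88.4, 94.4 and 88.8. They differed in base content, with 56.8% G and C for Magoh, 52.8% for Cse1l and 40% for Med16 (median of all promoters 51.2%). Both strands were searched for 6 motifs: TATAAA, the core of the TATA box; CCAAT, the motif bound by NF-Y; GGGCGG, the GC box; TGACGTCA, the cAMP response element; CCGGAAG, a motif of ETS factors; and CACGTG, the E box. No 2 matches overlapped in these windows. Magoh had none of them. Cse1l held CCAAT on the minus strand, found in 34% of all promoters, and the cAMP response element, found in 1.59%. Med16 held CCAAT on the plus strand, the E box (in 5.59% of promoters), and the TATA motif on the minus strand, 215 bases before the start (in 12.9%). GGGCGG is in 30.5% of promoters and the ETS motif in 7.27%, and neither was in these 3. A match of letters is a description and shows no binding.

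All 5 genes were measured well clear of background in every aorta, and 4 of them ranked among the brighter probes of the array. Signal percentiles, taken among all non-control probes of an array, averaged 90.2 ± 2.25 (SD over 6 arrays) for Magoh, 88.9 ± 1.95 for Cse1l, 87 ± 2.06 for Pop7 and 83.6 ± 2.32 for Eif4b. Med16 ranked lower, at 67.4 ± 3.37. Since probes bind with different strength, these ranks do not order the genes by mRNA abundance. On all 6 arrays every unmarked spot for these genes cleared that mark. The dimmest gene, Med16, had signals of 111 to 196 on a local background of 13 to 16. No spot was saturated.

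The 10 spots of a probe agreed closely compared with the spread between arrays. The median SD between spots within an array was 0.113 on the log2 scale for Magoh, 0.0855 for Pop7, 0.0788 for Eif4b, 0.0837 for Med16 and 0.0988 for Cse1l. The SD over the 6 arrays was 12.1 (Med16) to 18.5 (Magoh) times the standard error that those spots give. Between 8 and 10 spots remained per array after marked spots were left out. Spots share 1 labelled RNA, so they speak for the measurement of an array and not for the rat.

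The arrays fell into 2 sets by the scan date in their file headers, and these sets are called slides here. A slide number was not read. Slide 1 carried the 3 controls together with peptide 1, whereas slide 2 carried peptide 2 and 3. Values below are log2 signals relative to the 75th percentile of the array's probes. On each array 95.4% to 98% of probes were well above background. Precision is limited by having 6 arrays, and nothing beyond the labels' 6 rats says how far the arrays reflect animals rather than handling.

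Magoh, the exon junction protein, was at 3.7, 2.2 and 2.1 in control 1, 2 and 3, and at 2.59, 1.93 and 2.06 in peptide 1, 2 and 3. Control 1 stood far above every other array, and the groups overlapped. The group means were 2.67 ± 0.89 and 2.19 ± 0.35 (SD, n = 3 each), a difference of -0.48 (SE 0.43, 95% confidence interval -1.43 to 0.47; limma adjusted p = 0.759). All 3 peptide arrays lay below the control mean, but that mean rests on control 1: without that array the difference was 0.039. Fewer cells of a type and less RNA per cell cannot be told apart in whole aorta, here and for the genes that follow.

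Pop7, the ribonuclease P and MRP subunit, was at 2.81, 1.66 and 1.54 in control 1, 2 and 3, and at 1.84, 1.43 and 1.43 in peptide 1, 2 and 3. Its order of arrays was close to that of Magoh, with control 1 again on top and peptide 1 next. The difference was -0.43 (SE 0.37, interval -1.25 to 0.38; limma adjusted p = 0.758), and -0.031 without control 1. It was below 0 under each of the 21 alternatives, at -0.66 to -0.031. Among these, other filters, the replicate block and another variance model left the difference unchanged, so they could not turn its sign.

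Eif4b, the translation initiation factor, was at 1.43, 0.96 and 0.98 in the controls and at 1.77, 0.78 and 1.05 in peptide 1, 2 and 3. Here peptide 1 was the highest array and peptide 2 the lowest, so that the treated rats enclosed all controls. The means were 1.12 ± 0.26 and 1.2 ± 0.51 (SD, n = 3 each), a difference of 0.075 (SE 0.33, interval -0.66 to 0.80; limma adjusted p = 0.943). Without peptide 1 it was -0.21, and without control 2 it was -0.0052.

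Med16, the Mediator subunit, was at -1.18, -0.48 and -0.36 in the controls and at -0.46, -0.93 and -0.74 in peptide 1, 2 and 3. Control 1, the highest array for Magoh, Pop7 and Cse1l, was the lowest for Med16. The group means were nearly equal, at -0.67 ± 0.44 and -0.71 ± 0.24 (SD, n = 3 each), with a difference of -0.036 (SE 0.32, interval -0.73 to 0.66; limma adjusted p = 0.973). Its sign turned without control 2 (0.06), control 3 (0.12) or peptide 2 (0.075).

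Cse1l, the export receptor for importin alpha, was at 2.99, 2.06 and 1.88 in the controls and at 2.42, 1.75 and 1.72 in peptide 1, 2 and 3. Control 1 and peptide 1 were the highest arrays, as for Magoh and Pop7. The means were 2.31 ± 0.6 and 1.96 ± 0.4 (SD, n = 3 each), a difference of -0.35 (SE 0.36, interval -1.15 to 0.46; limma adjusted p = 0.774). Without control 1 the difference was -0.0066.

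**Figure D1:**
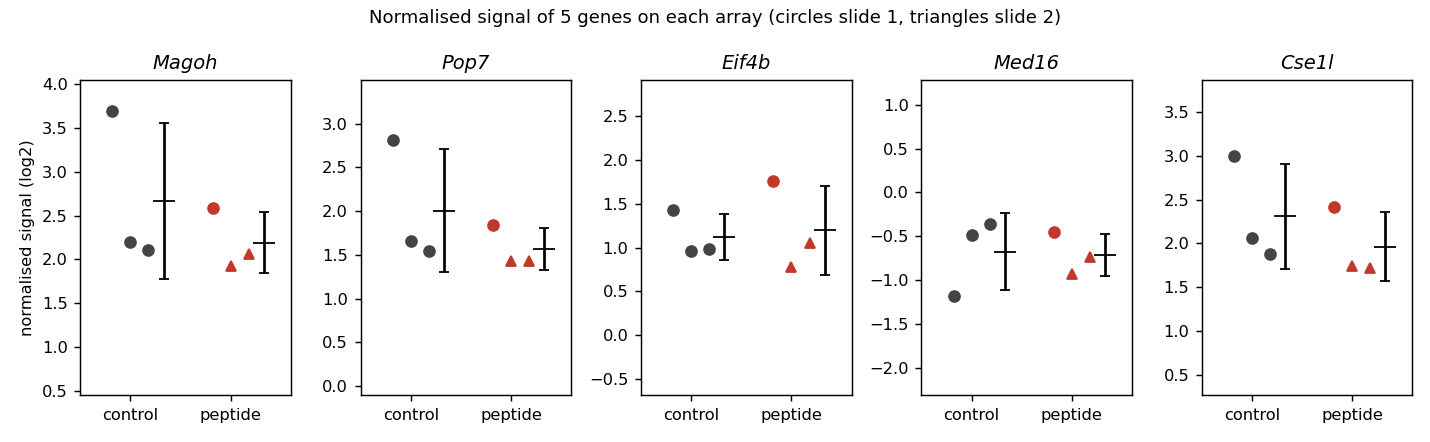
Normalised log2 signal (vertical axis, relative to the array's 75th percentile; each panel spans the same number of log2 units) of the 5 genes in the control and peptide groups, with 1 point per array, circles for slide 1 and triangles for slide 2, and bars for mean and SD (n = 3). Control 1, the leftmost control, is the highest array for Magoh (3.7), Pop7 (2.81) and Cse1l (2.99) and the lowest for Med16 (-1.18).

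The question of the design was which RNAs differ between treated and control aortas, and none of these 5 genes passed that test. Limma called 0 of the 5 at an adjusted p under 0.05, and 0% of the 37721 probes tested. At an unadjusted p under 0.05 it called 0 of the 5 and 1067 (2.83%) of all tested probes, 0.536% as higher and 2.29% as lower. The groups overlapped in all 5 genes, where 5.47% of all tested probes had groups that did not overlap (1.28% with the peptide arrays on top and 4.19% with them below). Exact two-sided permutation tests over the 6 arrays gave p = 0.5 for Magoh, Pop7 and Cse1l, 0.8 for Eif4b and 0.9 for Med16, and 0.1 is the smallest value that 3 arrays against 3 can give. The intervals still hold changes of some size: for Magoh they reach from 2.69-fold lower to 1.39-fold higher, for Pop7 from 2.38-fold lower to 1.3-fold higher, and for Cse1l from 2.22-fold lower to 1.37-fold higher. For Eif4b they run from 1.57-fold lower to 1.75-fold higher and for Med16 from 1.66-fold lower to 1.58-fold higher.

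Of the 5 differences, 4 were below 0 and 1 above, with a median of -0.35, beside a median of -0.21 over all tested probes, of which 72.2% were below 0. Relative to that median of all probes, Magoh was at -0.26, Pop7 at -0.22 and Cse1l at -0.13, while Eif4b was at 0.29 and Med16 at 0.18. That common shift depends on the scaling: after quantile normalization the median of all probes was -0.029.

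**Figure D2:**
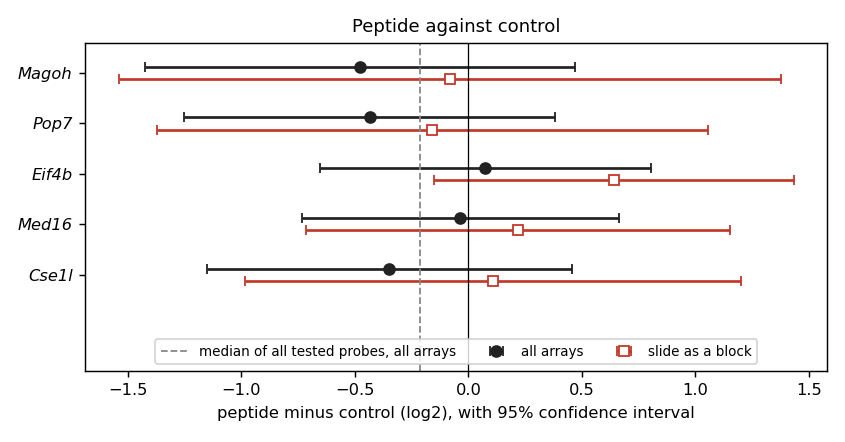
Peptide minus control on the log2 scale (horizontal axis) for each gene, with 95% confidence intervals, over all 6 arrays (black circles) and with the slide as a block (red squares), beside the median of all tested probes (dashed line at -0.21). Every interval spans 0, and the Cse1l and Med16 estimates change sides between both fits.

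The treated rats of slide 2 were lower than the treated rat of slide 1 in all 5 genes. Peptide 2 and 3 together lay below peptide 1 by -0.59 in Magoh, -0.41 in Pop7, -0.85 in Eif4b, -0.38 in Med16 and -0.69 in Cse1l. The same direction was found in 23 of the 25 other named genes, whose median gap was -0.63, and in 69.8% of all tested probes, whose median gap was -0.37. The 75th percentile itself was a signal of 240 in peptide 1, 336 in peptide 2 and 328 in peptide 3. Before scaling, Pop7 was at 861, 906 and 884 in peptide 1, 2 and 3, and Med16 at 175, 176 and 196. Unscaled signals of Magoh, Eif4b and Cse1l were lower in peptide 2 and 3 than in peptide 1. How far the gaps depend on the scaling was not tested. With the slide as a block, which sets peptide 1 against the 3 controls of its slide, the differences were -0.082 (SE 0.62) for Magoh, -0.16 (SE 0.51) for Pop7, 0.64 (SE 0.34) for Eif4b, 0.22 (SE 0.40) for Med16 and 0.11 (SE 0.46) for Cse1l. None passed the test (limma adjusted p = 1 for each), and 0% of all tested probes did. The blocked values describe a single treated rat.

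As steadily expressed genes, the 5 were not alike. Over the 6 arrays the SD of the log2 signal was 0.32 in Med16, 0.36 in Eif4b, 0.49 in Cse1l, 0.53 in Pop7 and 0.66 in Magoh, against a median of 0.41 over tested probes (quartiles 0.30 and 0.54). The lowest and the highest array differed 1.77-fold in Med16, 1.98-fold in Eif4b, 2.42-fold in Cse1l, 2.6-fold in Pop7 and 3.41-fold in Magoh. By this measure 29.6% of tested probes varied less than Med16, 39.4% less than Eif4b, 66.3% less than Cse1l, 72.3% less than Pop7 and 88.4% less than Magoh. Bright probes varied more in these arrays, so probes within 5 percentile points of the same mean level make a closer comparison. Among those (3808 to 3925 probes for each gene), 26.5% varied less than Eif4b, 39.4% less than Med16, 43.8% less than Cse1l, 52.7% less than Pop7 and 73.3% less than Magoh.

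The order of stability turned on control 1. Without that array the SD was 0.25 in Magoh, 0.17 in Pop7 and 0.29 in Cse1l, against a median of 0.37 over tested probes. Then 11.6% of tested probes varied less than Pop7 and 26.1% less than Magoh. Among probes of similar level these shares were 11.9% and 27.8%. Control 1 was left out because it stood farthest out in Magoh, Pop7 and Cse1l, so their lower SDs are no independent measure of steadiness. Eif4b, at 0.38, became the most variable of the 5, and 52.8% of tested probes varied less (56.1% of those at similar level). Med16 was at 0.24. After quantile normalization of all 6 arrays the SDs were 0.51 in Magoh, 0.40 in Pop7, 0.39 in Eif4b, 0.25 in Med16 and 0.40 in Cse1l, against a median of 0.30 over tested probes, and 67.3% of tested probes then varied less than Eif4b. Among probes of similar level 38.8% then varied less than Eif4b, 28.1% less than Med16, 40.8% less than Pop7, 43% less than Cse1l and 61.7% less than Magoh. By SD, Magoh was the most variable and Med16 the least after quantile normalization, as in the main values. That was not so after normexp background correction with the 75th percentile. In that setting Eif4b was the most variable (0.32), followed by Magoh (0.29), Cse1l (0.24), Med16 (0.21) and Pop7 (0.19).

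**Figure D3:**
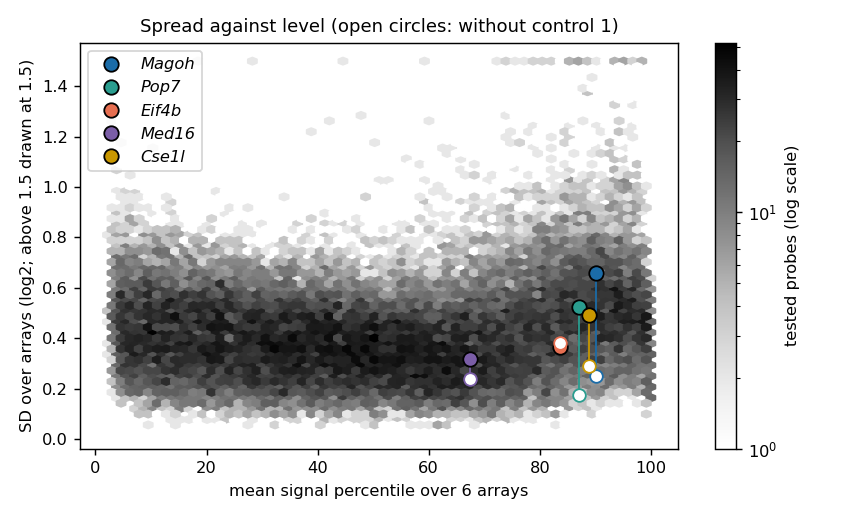
SD of the normalised log2 signal over arrays (vertical axis) against the mean signal percentile over the 6 arrays (horizontal axis) for all tested probes (grey cells, darker for more probes, log scale), with the 5 genes as filled circles and their SD without control 1 as open circles. Leaving out control 1 takes Magoh from 0.66 to 0.25 and Pop7 from 0.53 to 0.17, while Eif4b stays near 0.36 to 0.38.

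The shift of control 1 went with the level of a probe. Its signal lay above the mean of the other 5 arrays by 1.52 in Magoh, 1.23 in Pop7, 1.03 in Cse1l and 0.32 in Eif4b, and at -0.59 from it in Med16. Probes of similar level to Magoh had a median of 0.68, those similar to Pop7 0.55, those similar to Cse1l 0.63 and those similar to Eif4b 0.40, whereas the probes similar to Med16 had a median of -0.096. Control 1 was the highest array for 58.6% of the probes at the level of Magoh and for 21.3% of all tested probes. The part of this level-dependent shift in the values of the 5 genes was not tested.

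Magoh, Pop7 and Cse1l followed the same course from array to array. Pearson's r over the 6 arrays was 0.995 for Magoh with Pop7, 0.973 for Magoh with Cse1l and 0.968 for Pop7 with Cse1l. These are descriptions over 6 points that share the scaling of each array, and control 1 weighs heavily in them. Without control 1 they were 0.963, 0.968 and 0.996, without control 1 and peptide 1, the arrays farthest from the median, 0.887, 0.845 and 0.995, and after quantile normalization 0.991, 0.939 and 0.931. An r with Magoh as high as that of Pop7 was reached by 0.0159% of the other tested probes, and as high as that of Cse1l by 0.624%. Seen from Pop7 the shares were 0.0372% for Magoh and 0.913% for Cse1l. Seen from Cse1l they were 0.555% for Magoh and 0.746% for Pop7. These shares are over probes of all levels. By the rule of the 3 named genes most alike, Magoh, Pop7 and Cse1l each had the other two and Pdcd10, a protein of the vascular cerebral cavernous malformation complex (r = 0.973 with Magoh, 0.964 with Pop7 and 0.963 with Cse1l).

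Eif4b and Med16 were less like these 3, and for both that rests in part on control 1. Over all arrays the r with Magoh was 0.636 for Eif4b and -0.569 for Med16, and without control 1 it was 0.955 and 0.611. With Cse1l it was 0.728 for Eif4b and -0.431 for Med16, and without control 1 0.87 and 0.601. With Pop7 it was 0.574 for Eif4b and -0.585 for Med16, and without control 1 0.846 and 0.665. Med16 thus stayed below the 0.963 to 0.996 that Magoh, Pop7 and Cse1l had among themselves without control 1. Among the named genes, most like Eif4b were Trim2, a ubiquitin ligase (r = 0.961), the lncRNA gene LOC108352165 (0.863) and the phospholipase Pld1 (0.841), over the same 6 arrays. The r with Pld1 turned to -0.38 when peptide 1 and control 1, the arrays farthest from the Eif4b median, were left out, and those with Trim2 and LOC108352165 were then 0.899 and 0.463. After quantile normalization they were 0.906 for Trim2, 0.549 for LOC108352165 and 0.778 for Pld1. For Med16 the nearest were the luteinizing hormone receptor Lhcgr (0.778), the ATP-gated channel P2rx2 (0.773) and the scaffold protein Dlg4 (0.759), and 19.9% of tested probes were at least as much like Med16 as Lhcgr was. Without control 1 these 3 were at 0.968, 0.946 and 0.91.

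The ratio of 2 probes on the same array cannot be changed by scaling the array as a whole. The log2 ratio of Pop7 to Cse1l had an SD of 0.13 over the 6 arrays, that of Magoh to Pop7 0.15 and that of Magoh to Cse1l 0.21. The SDs of the single genes were 0.49 to 0.66. Of the 435 pairs that the 30 named genes form, these 3 ranked 5, 6 and 18 from the steadiest, where the median pair had an SD of 0.58. The ranks were not matched for level. These 3 genes are of similar level, and how far a shift that goes with level enters or leaves their ratios was not tested. The named genes range in level from percentile 10.1 (Nlrp3) to 91 (Pdcd10). Spot noise alone gives these 3 ratios a standard error of 0.045 to 0.049 per array. Without control 1 the SDs were 0.12, 0.094 and 0.078. Over all arrays the ratios of Med16 to these 3 genes varied most, at 0.69 to Cse1l, 0.76 to Pop7 and 0.88 to Magoh, but without control 1 their SDs were 0.24, 0.18 and 0.21. Ratios of Eif4b then varied about as much, at 0.16 to Magoh, 0.19 to Cse1l, 0.25 to Pop7 and 0.34 to Med16, and the median of the 435 pairs was 0.49. Magoh over Med16 lay 1.54 above the control mean in control 1 and at -0.66 and -0.88 in control 2 and 3, so that this ratio moved within the control group more than between the groups.

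**Figure D4:**
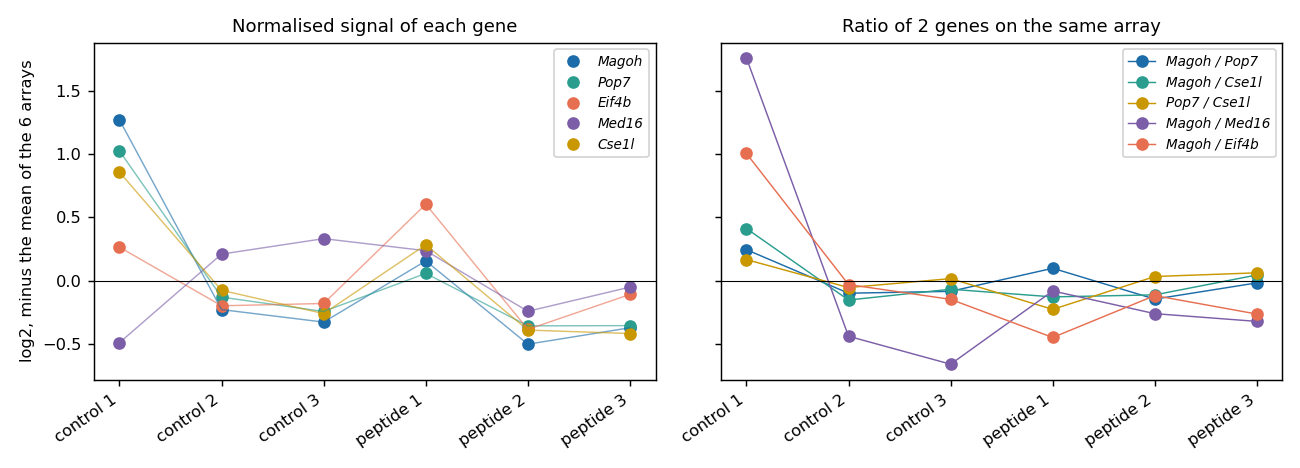
Left, the log2 signal of each gene minus its mean over the 6 arrays (vertical axis) on each array (horizontal axis). Right, the log2 ratio of 2 genes on the same array, centred likewise, where lines only join the points of a gene or pair. The ratios among Magoh, Pop7 and Cse1l stay close to 0 (SD 0.13 to 0.21), while Magoh over Med16 (SD 0.88) departs in control 1.

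Compared between the groups, none of the 10 ratios differed beyond the spread of the arrays. Magoh over Pop7 changed by -0.042 (SE 0.13), Pop7 over Cse1l by -0.087 (SE 0.11) and Magoh over Cse1l by -0.13 (SE 0.18), peptide minus control. Ratios with Eif4b differed more, at -0.55 (SE 0.38) for Magoh over Eif4b, -0.51 (SE 0.30) for Pop7 over Eif4b and 0.42 (SE 0.22) for Eif4b over Cse1l. For these 3 the exact two-sided permutation p was 0.2, and for the other 7 it was 0.6 to 1. The groups overlapped in all 10 ratios.

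Judged by the mean SD of its log2 ratio to the 29 other named genes, Cse1l ranked 2 of 30 in steadiness (0.475), Eif4b 5 (0.479), Pop7 7 (0.512), Magoh 16 (0.585) and Med16 22 (0.627), where the 30 genes ran from 0.463 to 1.38. By the SD of their own signal the ranks were 13, 6, 17, 26 and 5. The place of Med16 and Magoh in this order rests on control 1. Without that array the mean ratio SD was 0.377 for Magoh, 0.38 for Pop7, 0.383 for Cse1l, 0.405 for Med16 and 0.426 for Eif4b. Those are the ranks 1, 2, 3, 4 and 8 of the 30 genes. Control 1 was left out for standing apart in Magoh, Pop7, Cse1l and Med16, so these ranks are no independent measure of steadiness. None of these rankings was matched for level. None of the 16 common reference genes listed for comparison, such as Actb and Gapdh, had a named probe, nor had any of the 84 listed partners of the 5 genes in the exon junction complex, ribonuclease P, translation initiation, Mediator and nuclear transport.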

How the data were processed

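Per the labels' protocols, ribosomal RNA was removed from the RNA of 6 aortas, and the rest was copied by random priming and labelled with Cy3. The deposited scanner files hold spot intensity from Agilent Feature Extraction 11.0.1.1, per the file headers, background-subtracted and not normalized between arrays. The authors also deposited a log2 table with equal quartiles in all 6 columns, so it was quantile normalized; each column was most like its own array (r of at least 0.997). How spots were combined there is not stated.

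Control spots and outlier-marked spots were left out, log2 signals of a probe were averaged, and each array was lowered by its 75th percentile. For 53 probes every spot was marked on some array, and those values were left out of the fits, none of them of the 5 genes. Probes well above background on at least 3 arrays (37721) were tested with limma 3.58.1 in R 4.3.3 (two-sided, Benjamini-Hochberg over all tested probes, threshold 0.05). A simulated dataset with known changes was used to check the fit. Names came from the 50 catalogue probes, 30 of which matched RefSeq (GRCr8, used for names and promoters); the scanner files name another build. Other genes are named as the 3 most alike to each of the 5, by r. Figures used matplotlib 3.10.9.

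The genes, lists and tests were chosen with earlier results of these data known. Alternatives were other scalings, normexp on the median spot and background signals (offset 50), the deposited table, other filters, blocks, variance models and spot rules, and leaving out each array. Ratios between genes, spreads without control 1, and a fit on replicates 2 and 3 alone were not planned and came after seeing the data. P-values measure the spread between these arrays.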

Additional observations from a re-analysis of the deposited data

How the results depend on the processing

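None of the 5 genes passed the adjusted threshold under any of the 21 alternatives. Except when control 1 and peptide 1 were left out together, only 0 to 4 of all tested probes passed in each alternative. Not passing there does not set the 5 genes apart from other probes. Pop7 alone kept its sign in all 21 alternatives. Magoh kept it in 20, Cse1l in 20, Eif4b in 18 and Med16 in 13, and the cause was not tested. These counts include the other filters, the replicate block and the variance model, which leave each difference unchanged and cannot turn a sign. Med16 turned with median scaling (0.17), centring on the catalogue probes (0.025), the deposited table (0.00061), the slide as a fixed block (0.22) or as a random block (0.079). Cse1l turned with the slide as a fixed block (0.11), and Eif4b with control 1 and peptide 1 left out together (-0.057). In that last setting Med16 was at -0.42 (limma adjusted p = 0.0863), each group lies on a slide of its own and 14447 of all tested probes passed; slide and peptide cannot be told apart there. Leaving out 1 array gave 0 to 4 probes past the threshold, and differences of -0.76 to 0.039 for Magoh, -0.66 to -0.031 for Pop7, -0.21 to 0.29 for Eif4b, -0.29 to 0.12 for Med16 and -0.58 to -0.0066 for Cse1l. Same-numbered arrays deviated with correlations of -0.013, -0.19 and -0.24, so the numbers show no pairing, and with the replicate block 0 probes passed and the 5 differences were as without it.

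Level percentiles moved by less than their SD over arrays in every setting tried, from 89.5 to 90.7 for Magoh and 66.8 to 68.6 for Med16 when 1 array was left out. SDs over arrays moved by more than their jackknife error with median scaling for Med16 (0.19). They also did with normexp and the 75th percentile for Pop7 (0.19), Med16 (0.21) and Cse1l (0.24). Without control 1 this held for Magoh (0.25), Pop7 (0.17) and Cse1l (0.29). Leaving out 1 array gave SDs of 0.25 to 0.73 for Magoh, 0.17 to 0.59 for Pop7, 0.24 to 0.40 for Eif4b, 0.24 to 0.36 for Med16 and 0.29 to 0.55 for Cse1l. The cause of the normexp values was not tested.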
